A study of Mus musculus with 9 samples.

Results

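Reg3g and Reg3d are 2 genes of the Reg3 family of secreted C-type lectins, and each was read by 1 probe of the array, 2 of 166924 probes in all. Both genes were chosen by their measured levels on these same arrays, high in colitis and low on either side of it. The differences between groups are therefore given as a description, with their spread and without a test. The tissue was colon of male C57BL/6J mice aged 10 weeks, 3 arrays in each of 3 groups. The Control group drank distilled water. The DSS group and the DSS+PAMK group drank 3% dextran sulfate sodium (DSS), which injures the colonic epithelium and gives an acute colitis, for 7 days. From day 8 to day 14 the Control and DSS groups received saline by gavage and the DSS+PAMK group received 200 mg/kg of PAMK, a polysaccharide of Atractylodes macrocephala. Colitis of this kind is a chemical injury, and the comparison of DSS+PAMK with DSS was made in mice that all drank DSS. The labels do not state that each array was a separate mouse, so the spread may be partly or wholly technical. If it were wholly technical, the standard errors and p-values would not measure variation between mice.

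REG3G is an antibacterial lectin that intestinal epithelial cells release into the mucus, where it binds the peptidoglycan of Gram-positive bacteria and helps to keep bacteria away from the epithelium. Its transcription in the gut is known to depend on microbial signals through Toll-like receptors and MyD88 and on interleukin 22, which acts through STAT3. Reg3d encodes a close relative that has been studied mainly in the pancreas, and its role in the colon is less clear. Both genes lie in a cluster on chromosome 6. In RefSeq (GRCm38.p6) the order along the chromosome is Reg3b, Reg3d, Reg3a, Reg2, Reg1, the pseudogene Gm52853 and Reg3g, so 3 Reg genes and 1 pseudogene separate the 2 genes.

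The probe sequences are shown because each gene rests on a single probe of 60 bases, and relatives of the family could share signal with it. The first 30 bases are given for Reg3g and the whole probe for Reg3d, with capitals in the Reg3d probe for the longest stretch found in any other probe of the array.
Reg3g: tcaaggcctagagtacagaattgacatcat
Reg3d: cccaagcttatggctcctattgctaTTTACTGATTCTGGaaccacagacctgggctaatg
The Reg3d probe shared 14 bases with 2 other probes, and the Reg3g probe shared at most 15 bases with 2 other probes. The longest stretch common to the Reg3g and Reg3d probes was 6 bases, so the 2 probes read different sequences. The probes were compared with other probes only and not with transcripts of the other Reg genes. Signal shared with those relatives was therefore not tested. Of the 3 sense frames, 1 was free of stop codons in the Reg3d probe and 0 in the Reg3g probe.

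The promoters are shown because the 2 genes were highest on the same array in each group. Each sequence holds the 250 bases before the RefSeq start, 5′ to 3′ on the minus strand of GRCm38.p6. The array files name a different build, so these positions belong to the RefSeq annotation and not to the array. Capitals mark 3 motifs searched on both strands, the STAT motif TTCNNNGAA, the end of one form of it, CTGGGAA, that is known from acute-phase genes, and TATAAA.
Reg3g, chr6:78468875-78469124: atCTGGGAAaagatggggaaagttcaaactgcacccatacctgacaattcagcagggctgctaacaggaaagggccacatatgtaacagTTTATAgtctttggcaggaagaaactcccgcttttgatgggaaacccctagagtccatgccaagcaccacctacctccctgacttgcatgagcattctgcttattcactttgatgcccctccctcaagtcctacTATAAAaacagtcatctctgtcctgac
Reg3d, chr6:78378866-78379115: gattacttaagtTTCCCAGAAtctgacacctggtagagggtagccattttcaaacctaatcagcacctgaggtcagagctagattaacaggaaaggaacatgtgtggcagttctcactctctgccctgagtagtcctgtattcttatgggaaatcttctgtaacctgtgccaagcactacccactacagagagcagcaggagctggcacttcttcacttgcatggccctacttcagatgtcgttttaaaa
CTGGGAA lay 248 to 242 bases before the start of Reg3g, and its reverse complement lay 238 to 232 bases before the start of Reg3d. In Reg3d this stretch was also part of a match to the STAT motif, which overlaps CTGGGAA here, from 238 to 230 bases before the start. CTGGGAA occurred in 9.1% of 32851 promoter windows of the same length, and TTCNNNGAA in 7.02%. TATAAA lay 27 to 22 bases before the start of Reg3g and, reversed, 161 to 156 bases before it. It was not found in the Reg3d window, and 12.4% of all windows held it. CTGGGAA was also found in the windows of Reg1 and Reg3a, and TTCNNNGAA in that of Reg3b. The best local alignment of the Reg3g and Reg3d promoters had 102 identical bases in 156 columns, or 65.4%. By alignment score among the promoters of other genes, Reg3d ranked 11 for Reg3g and Reg3g ranked 16 for Reg3d. The promoter most similar to that of Reg3g was that of Reg3b, with 69.3% identity over 254 columns, and the most similar to that of Reg3d was that of Reg3a, with 68.8% over 144 columns. A match of letters is a description and not a site of binding.

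On the arrays, Reg3g was well above background in all 9 samples. The normalised levels (log2 of the processed signal after quantile normalisation) were 13.55, 8.35 and 11.47 in Control replicates 1, 2 and 3. In the DSS group they were 15.78, 15.44 and 17.31. With PAMK they were 10.42, 12.43 and 10.99. Every DSS array was above every other array, and the nearest Control array was 1.88 lower and the nearest DSS+PAMK array 3.01 lower on the log2 scale. The Control and DSS+PAMK arrays overlapped, with Control replicate 1 above all DSS+PAMK arrays and Control replicate 2 below them. None of the probe spots on the 9 arrays was marked as saturated, so the 183500 units of processed signal in DSS replicate 3 were within the range of the scanner.

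The group means of Reg3g were 11.13 ± 2.62 (SD, n = 3) in Control, 16.18 ± 1.00 in DSS and 11.28 ± 1.04 in DSS+PAMK. The DSS mean was 33.2-fold above the Control mean, a log2 difference of 5.05 with a standard error of 1.19. Standard errors are from limma, which pools the spread of the groups although their SDs differ here. DSS+PAMK stood 29.8-fold below DSS, a log2 difference of -4.90 with the same standard error. The difference between DSS+PAMK and Control was 0.15, smaller than its standard error of 1.19, which leaves room for a difference of either sign. In bulk tissue, more cells that make a transcript and more transcript per cell cannot be told apart.

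Reg3d was also highest in the DSS group, at signals closer to background. It was well above background in Control replicate 1, in all 3 DSS arrays and in DSS+PAMK replicate 2, that is on 5 of 9 arrays. The levels were 6.50, 1.27 and 2.79 in the Control group, 8.77, 7.72 and 11.03 in the colitis group, and 1.58, 4.82 and 2.98 after PAMK, each in the order of replicates 1 to 3. All 3 DSS arrays were again above all others, by 1.22 over the nearest Control array and by 2.90 over the nearest DSS+PAMK array. On Control replicate 2 and DSS+PAMK replicate 1 the processed signal was a surrogate value that the scanner software sets in place of a signal lost in the background, so those levels have no order. The Control and DSS+PAMK arrays overlapped here too.

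**Figure D1:**
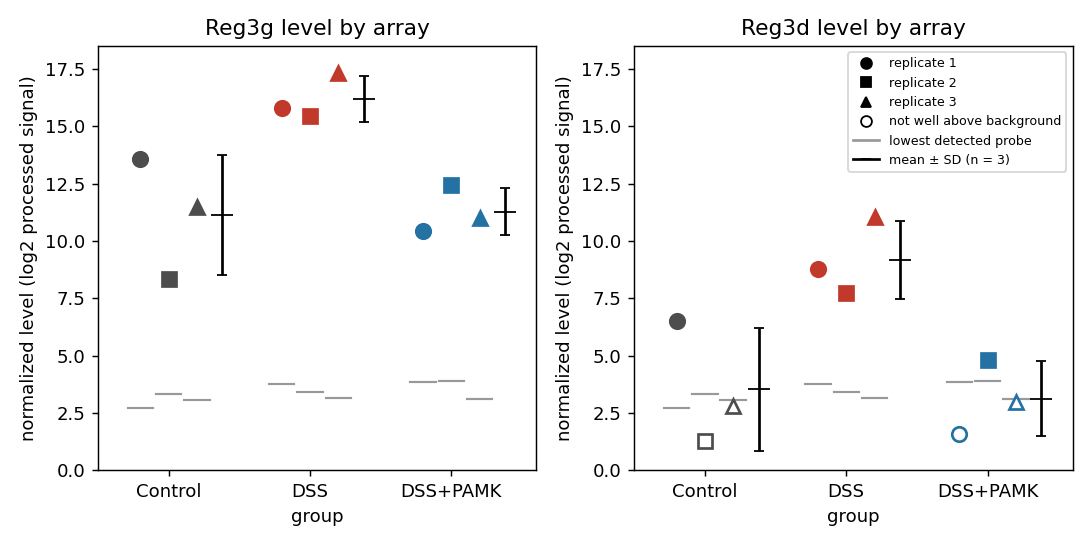
Normalised level (log2 processed signal) of Reg3g, left, and Reg3d, right, on each of the 9 arrays, with the mean and SD of each group of 3 arrays beside the points. Open symbols are arrays on which the probe was not well above background, and grey lines are the lowest level of any probe that was. The DSS arrays lie above all others for both genes, and 4 Reg3d arrays are open.

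The means of Reg3d were 3.52 ± 2.69 (SD, n = 3) in Control, 9.17 ± 1.69 in DSS and 3.13 ± 1.62 in DSS+PAMK. The log2 difference was 5.65 with a standard error of 1.42 for DSS against Control and -6.05 with the same standard error for DSS+PAMK against DSS. For DSS+PAMK against Control it was -0.40, also with a standard error of 1.42. Only 1 of 3 Control arrays and 1 of 3 DSS+PAMK arrays measured the gene, so the size of these differences depends on how dim arrays are treated. With those arrays raised to the lowest level of any probe well above background, the differences were 4.87 and -5.24. With normexp background correction they were 2.99 and -3.22, while those of Reg3g were 4.98 and -4.85.

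Because both genes were chosen on these differences, their calls are not read as tests, and the shares below describe all 99616 tested probes. The study's methods set a threshold of 2-fold and an unadjusted p of 0.05. In limma it was met on the higher side by 1.98% of probes in DSS against Control and on the lower side by 1.06% in DSS+PAMK against DSS. After Benjamini-Hochberg adjustment 175 probes (0.176%) passed in DSS against Control and none (0%) in the other 2 comparisons. The methods' t-test with the same adjustment passed 0 probes in all 3 comparisons. With limma, 7.22% of probes had an unadjusted p under 0.05 in DSS+PAMK against DSS and 13.9% in DSS+PAMK against Control. Groups that did not overlap were common: 10.5% of tested probes had all DSS arrays above all Control arrays, and 6.53% had all DSS+PAMK arrays below all DSS arrays.

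The Control arrays differed from each other more in Reg3g than in almost any other probe. From the lowest to the highest Control array, the processed signal of Reg3g spanned 36.8-fold after normalisation, against 3.68-fold among DSS arrays and 4.03-fold among DSS+PAMK arrays. The SD of Reg3g in Control was 2.62, and 37 other tested probes had one as large, where the median over all tested probes was 0.27. For Reg3d the Control SD was 2.69, with 31 other probes at least as large. However, 2 of its 3 Control arrays were dim, so this SD rests largely on levels that were not measured. In the DSS+PAMK group the SD of Reg3g exceeded that of 98.9% of tested probes and in the DSS group that of 95.7%.

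Single Control arrays set much of the size of the difference. Without Control replicate 1 the log2 difference between DSS and Control was 6.27 for Reg3g and 7.14 for Reg3d, and without Control replicate 2 it was 3.66 and 4.53. Without DSS replicate 3, the highest array of both genes, it was 4.48 and 4.72. For Reg3d the difference was 6.38 without DSS replicate 2. Between DSS+PAMK and Control the sign changed with the array left out, from -1.23 to 1.37 for Reg3g and from -1.52 to 1.09 for Reg3d.

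The 9 arrays lay on 3 slides, which were unevenly filled. Slide 1 held the 3 Control arrays and DSS replicate 1. Slide 2 held the other 2 DSS arrays together with replicates 1 and 2 of DSS+PAMK, and slide 3 held the last DSS+PAMK array. On slide 1 the DSS array was 4.65 above the Control mean for Reg3g and 5.25 for Reg3d. On slide 2 the difference of the DSS+PAMK arrays from the DSS arrays was -4.95 for Reg3g and -6.17 for Reg3d. No slide held both Control and DSS+PAMK arrays, so that difference has no value within a slide.

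The 2 genes were also compared array by array within the groups. In each of the 3 groups both genes were highest on the same array, replicate 1 in Control, replicate 3 in DSS and replicate 2 in DSS+PAMK. In the DSS group, where all arrays measured Reg3d, both genes were lowest on replicate 2. In the other 2 groups Reg3d was well above background on the highest array alone, so its lower ranks there were not measured. After each group mean was subtracted, the 2 genes lay on the same side of their means on 8 of 9 arrays. The exception was Control replicate 3, at 0.35 for Reg3g and -0.73 for Reg3d. A log2 unit of deviation in Reg3g went with 1.11 in Reg3d. This slope and the count of 8 arrays include the arrays on which Reg3d was not well above background. Deviations also cancel out within each group, so the signs are not separate agreements. Control replicate 1 and DSS replicate 3 also had the most probe spots well above background in their groups, 72.2% and 66.8%. In DSS+PAMK that array was replicate 3, with 67.3%, against 55.7% on replicate 2. Whether this bears on the shared order was not tested.

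**Figure D2:**
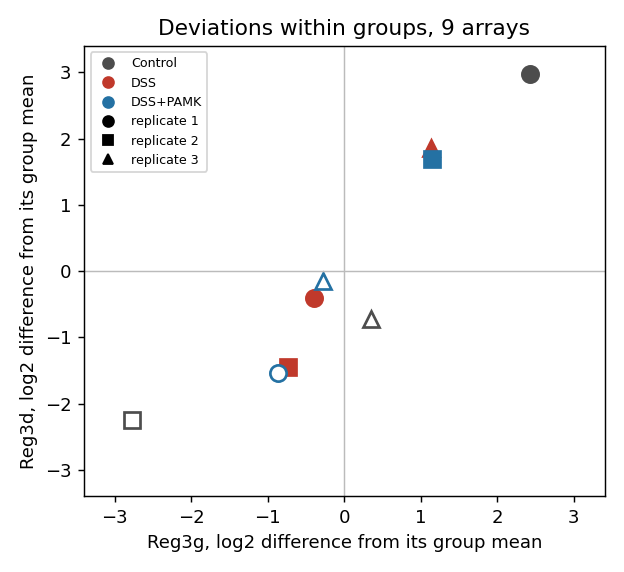
Deviation of Reg3d from its group mean against that of Reg3g, both in log2 units, for the 9 arrays, with colour for the group and shape for the replicate. Open symbols are arrays on which Reg3d was not well above background. The points run from Control replicate 2 at lower left to Control replicate 1 at upper right, with r = 0.93, and 4 of the 9 Reg3d values are from dim arrays.

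Pearson's r between the 2 genes was 0.98 over the 9 arrays, with Spearman's rho of 0.98, and 0.93 for the deviations from group means. The 9 arrays share a normalisation, their group means fix much of the first value, and 4 of the 9 Reg3d values were not well above background, so these are descriptions. Of 99589 other probes with a value on every array, 5 were at least as close to Reg3g as Reg3d was over the 9 arrays, and 0 were as close to Reg3d as Reg3g was. For the deviations, 0.227% of probes were at least as close to Reg3g and 0.141% at least as close to Reg3d. The median r of the deviations over all probes was -0.03 with Reg3g and -0.04 with Reg3d. The r of the deviations was 0.86 without Control replicate 1 and 0.99 without Control replicate 2, and it was 0.68 after normexp background correction.

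Of 175 other genes that could be tied to a tested probe, the one most like Reg3g over the 9 arrays was Ceacam12, a member of the carcinoembryonic antigen family of adhesion molecules. Its 3 probes had r from 0.987 to 0.993 over the arrays and from 0.960 to 0.975 for the deviations. Next came Reg3d, the Kelch-like gene Klhl35 with r = 0.96, Pdgfc, which encodes a platelet-derived growth factor, with 0.96, and Depp1 with 0.96. For the deviations alone, Ceacam12 and Reg3d were followed by Pdgfc with r = 0.92, Cpa3, the carboxypeptidase of mast cells, with 0.91, and the metalloproteinase gene Mmp7 with 0.89.

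The genes most like Reg3d over the 9 arrays were Reg3g, Depp1 with r = 0.97, Ceacam12 with 0.96, the granzyme gene Gzmb with 0.93 and the pseudogene Zscan4-ps2 with 0.93. For the deviations they were Reg3g, Depp1 with 0.92, Gzmb with 0.89, Ceacam12 with 0.83 and Ido1, which encodes a tryptophan-degrading enzyme, with 0.82. Most of these names came from a sheet of genes that the study had chosen for a change between these same groups, so a shared pattern over the groups was built into the choice.

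**Figure D3:**
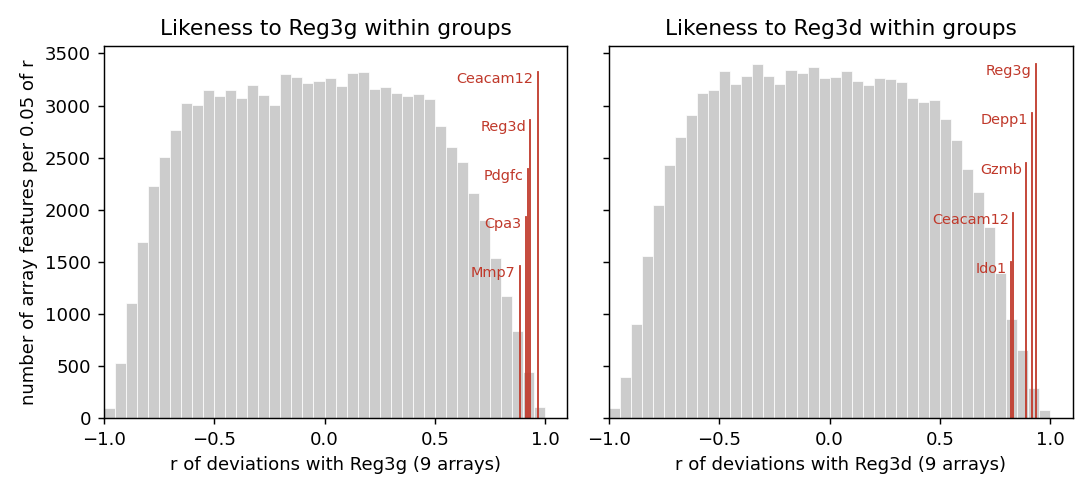
Number of array features by their correlation with Reg3g, left, and Reg3d, right, in the deviations from group means over the 9 arrays, in steps of 0.05 of r. Red lines mark the 5 most similar named genes, which lie between 0.82 and 0.97 in a distribution centred near 0.

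Ceacam12 gives an example of how close the patterns were. Its levels were 10.16, 7.69 and 9.32 in Control, 11.17, 11.15 and 11.65 in DSS and 8.84, 9.25 and 9.04 in DSS+PAMK. Control replicate 1 was again the highest Control array and replicate 2 the lowest, and all DSS arrays were above all others. The DSS mean was 2.27 above Control (SE 0.53, adjusted p = 0.147 from limma) and the DSS+PAMK mean differed from DSS by -2.28 (SE 0.53, adjusted p = 0.66 from limma).

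Mmp7 encodes matrilysin, a protease that activates Paneth cell defensins in the mouse small intestine. Its levels were 7.43, 2.79 and 6.94 in Control, 9.37, 9.17 and 9.39 in DSS and 6.11, 6.95 and 5.67 in DSS+PAMK. Control replicate 2, the array with the lowest Reg3g, was also the 1 array on which Mmp7 was not well above background. The mean difference was 3.59 between DSS and Control (SE 1.05) and -3.07 between DSS+PAMK and DSS (SE 1.05), and neither passed adjustment (adjusted p = 0.219 and 0.666 from limma).

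Few other genes of mucosal defence could be named. No probe could be named for any of the 5 other genes of the Reg family listed (Reg1, Reg2, Reg3a, Reg3b and Reg4). Of 98 genes in 4 lists (Reg family, antimicrobial and mucosal defence, interleukin 22, interleukin 17 and STAT3 signalling, and Toll-like receptor and interleukin 1 signalling), 9 had a named probe and 8 were tested. In DSS against Control, 5 of the 8 met the methods' threshold on the higher side (background 1.98%) and 2 on the lower side (background 1.08%). Their median log2 difference was 1.67, and that of all tested probes was -0.04. In DSS+PAMK against DSS, 5 met it on the lower side (background 1.06%) and 1 on the higher side (background 0.644%), with a median of -1.33 against 0.02 for all tested probes. In DSS+PAMK against Control, 2 met it on the higher side (background 1.65%) and 1 on the lower side (background 1.02%). With limma and Benjamini-Hochberg adjustment over all probes, 0 of the 8 passed in each comparison, and 7, 6 and 3 of them had an unadjusted p under 0.05 in the same order of comparisons. The methods' t-test gave 7, 5 and 0. All but 1 of the 8 took their names from the sheets chosen on these arrays, so the counts are not independent evidence of a direction.

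Among the antimicrobial and mucosal defence genes, Nos2 encodes the inducible nitric oxide synthase. Its level was 3.43 ± 0.80 (SD, n = 3) in Control, 7.37 ± 0.89 in DSS and 5.02 ± 1.05 in DSS+PAMK, with 2 of 3 Control arrays well above background. The difference was 3.94 for DSS against Control (SE 0.64, adjusted p = 0.0667 from limma), and the DSS+PAMK arrays lay between the other groups without overlap. The difference of DSS+PAMK from Control was 1.60 in Nos2.

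Duox2, an epithelial oxidase that releases hydrogen peroxide at the mucosal surface, and Duoxa2, its maturation factor, were higher by 1.46 and 1.92 in DSS than in Control (adjusted p = 0.0997 and 0.116 from limma). In DSS+PAMK against DSS the differences were -1.21 and -1.65. Saa3, an acute-phase serum amyloid A gene, was higher by 1.87 in DSS and had the largest difference of the tested list genes in DSS+PAMK against DSS, -2.36. Within the DSS group none of these had its highest array in replicate 3, where Reg3g and Reg3d were highest: Nos2 and Duox2 were highest in replicate 1, at 8.28 and 11.60, Duoxa2 in replicate 1 at 11.57, and Saa3 in replicate 2 at 8.71.

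Itln1, which encodes the lectin intelectin 1 of goblet and Paneth cells, went the other way. Its levels were 15.34, 15.07 and 15.60 in Control, 8.94, 9.68 and 11.16 in DSS and 14.24, 9.22 and 12.40 in DSS+PAMK, a difference of -5.41 for DSS against Control (SE 1.11, adjusted p = 0.114 from limma). DSS+PAMK replicate 2, the highest of its group for Reg3g and Reg3d, was the lowest for Itln1. Fcgbp, a mucus protein gene named here after its values were seen, differed by -1.61 in DSS against Control and was higher by 1.08 in DSS+PAMK than in DSS.

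Of the cytokine genes, Il33, an epithelial alarmin, was higher by 1.87 in DSS than in Control (SE 0.32, adjusted p = 0.0707 from limma) and differed by -1.44 in DSS+PAMK against DSS. The mean of Il18 was highest in DSS+PAMK, by 1.31 over Control, and its difference between DSS and Control was 0.66. The DSS+PAMK and DSS arrays of Il18 overlapped, with a difference of 0.66 (adjusted p = 0.714 from limma). The study's qRT-PCR of colonic tissue reported lower Il18 after PAMK, the opposite direction to this probe. Il17a was named through a primer of the study that lies in its probe. It was well above background on 1 Control array, 2 DSS arrays and 0 DSS+PAMK arrays and was not tested. Its levels were 5.40, 5.77 and 3.11 in the DSS replicates. No other gene of interleukin 22, interleukin 17 or STAT3 signalling had a named probe.

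**Figure D4:**
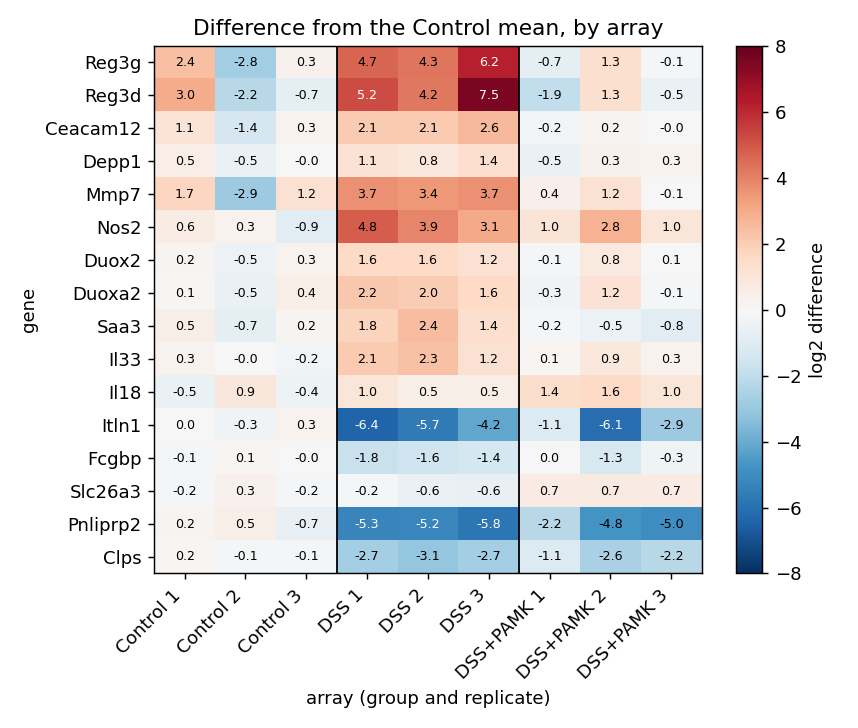
Log2 difference of each array from the mean of the Control arrays of the same gene, for Reg3g, Reg3d and 14 other named genes in rows and the 9 arrays in columns, red for higher and blue for lower. Reg3g and Reg3d have the widest range above 0, and Itln1, Fcgbp, Slc26a3, Pnliprp2 and Clps are below 0 on all DSS arrays.

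The markers of other cell types below took their names from the study's sheets of genes chosen for a change between these groups. A marker without such a change was unlikely to be named, so these differences are not independent evidence of a shift in cell types. Reg3 genes are also made in the pancreas, and 3 of 27 pancreatic acinar markers could be named, the lipase-related genes Pnliprp1 and Pnliprp2 and the colipase gene Clps. In DSS against Control, Pnliprp1 fell by 2.82, Pnliprp2 fell by 5.43 and Clps fell by 2.83 (adjusted p = 0.0484, 0.0392 and 0.0392 from limma). Their summed signal on the linear scale ranged from 20070 to 25930 in Control, from 2322 to 2959 in DSS and from 3245 to 9770 in DSS+PAMK, and in the DSS group 0 of 3 arrays measured Pnliprp1 well above background.

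Of 17 markers of colonic epithelium, Slc26a3, the chloride exchanger of colonocytes, could be named. It was well above background on all 9 arrays, and its signal ranged from 7281 to 10480 in Control, from 5507 to 7379 in DSS and from 13140 to 13380 in DSS+PAMK. Mmp7 was the 1 of 19 markers of small intestine and Paneth cells that could be named. Of 14 neutrophil and macrophage markers 3 could be named, and their summed signal ranged from 54.8 to 61.6 in Control, from 260.1 to 411.7 in DSS and from 134.3 to 227.5 in DSS+PAMK. Among them Ccr2 and Itgam rose in DSS by 2.68 and 1.93 (adjusted p = 0.0352 for both from limma), and Cxcr2 was not well above background on any Control or DSS+PAMK array. Foxp3, the transcription factor of regulatory T cells, was the 1 of 10 lymphocyte markers with a name. It rose by 1.74 in DSS (adjusted p = 0.0352 from limma), and its signal ranged from 22.3 to 30.1 in Control, from 76.7 to 90.3 in DSS and from 50.01 to 69.5 in DSS+PAMK. The study's own qRT-PCR of colonic tissue reported lower Foxp3 in colitis, the opposite direction to this probe. Its flow cytometry, in mesenteric lymph nodes and spleen rather than colon, reported a higher share of regulatory T cells in colitis. Of 10 stromal and muscle markers 0 could be named. The markers that passed adjustment did so with limma, and with the methods' t-test 0 probes passed it. The part of these cell types in the levels of Reg3g and Reg3d was not tested.

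**Figure D5:**
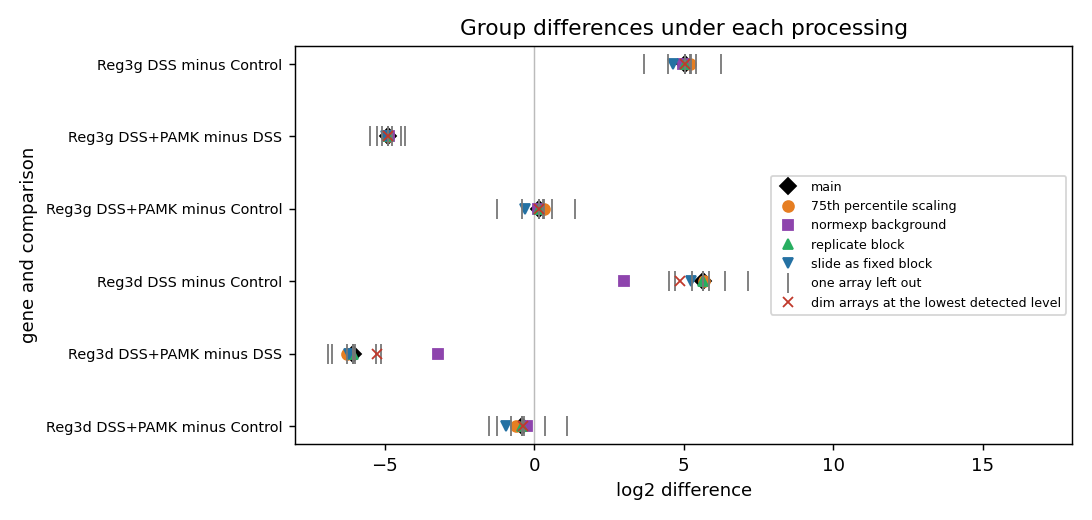
Log2 differences of Reg3g and Reg3d in the 3 comparisons under the main processing (black diamonds), under each alternative and with each array left out in turn (grey bars). Differences that involve DSS keep their sign in all of them. With an array left out, or slide or replicate number as a block, those signs could not change, because every DSS array lay above all others. Reg3d is nearer 0 with normexp background correction (2.99 and -3.22), and DSS+PAMK minus Control lies on both sides of 0.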

How the data were processed

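Total RNA of 9 colon samples was labelled with Cy3 and hybridised to 1-colour Agilent Mouse ceRNA arrays. Per the labels, the authors extracted signals with Feature Extraction 10.7.1.1. The deposited values used were the background-subtracted processed intensity, the mean and background intensity, and the spot flags. Here, log2 processed intensity was quantile normalised as in the study's methods. Control and outlier spots were left out, spots of a probe were averaged, and limma 3.58.1 was fitted to 3 group means over 99616 probes (in some group, all 3 arrays had to be well above background). The p-values and standard errors from limma rest on 1 estimate of spread per probe, taken between arrays within groups and pooled over the 3 groups. That estimate is then drawn toward the spread of other probes. Before that step the pooled SD was 1.72 for Reg3g and 2.06 for Reg3d. Arrays of a group correlated with r of 0.96 to 0.99, so none was an exact copy of another in its group. Such values cannot show whether the arrays came from separate mice. On each array 55.4% to 72.2% of probe spots were well above background. The number of arrays limits the precision.

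The files give probe identifiers without gene names. Names of 183 probes came from identifier columns of the study's supplementary sheets, and 2 more from its primers, and no value was taken from them. Where a gene had several probes, the one with the highest mean was used. The genes named were the members, those of each list that passed adjustment or had the 4 largest differences past the methods' threshold, and the 5 most similar to each member. The members and lists were chosen with earlier results of these data known. Scripts were tested on simulated data.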

Additional observations from a re-analysis of the deposited data

How the results depend on the processing

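The differences of Reg3g and Reg3d that involve the DSS group kept their sign under 75th percentile scaling and normexp background correction. A block on slide or replicate number, or 1 array left out, could not change these signs, because every DSS array lay above all others. Normexp correction with an offset of 50, which lifts all low signals, moved Reg3d to 2.99 for DSS minus Control and -3.22 for DSS+PAMK minus DSS, and the correlation of deviations to 0.68. Raising dim arrays to the lowest detected level was an alternative chosen after seeing the data. With 1 array left out, DSS minus Control ranged from 3.66 to 6.27 for Reg3g and from 4.53 to 7.14 for Reg3d, DSS+PAMK minus DSS from -5.47 to -4.33 and from -6.89 to -5.12, and the correlation of deviations from 0.86 to 0.99. Of the 8 genes of the 4 lists tested in the main processing, the methods' t-test called 0 in DSS+PAMK against Control, where limma called 3. Counts were otherwise 6 to 8 in DSS against Control and 4 to 7 in DSS+PAMK against DSS. The genes tested were not the same in every alternative. Il17a entered when dim probes were kept or DSS replicate 3 was left out. Nos2 dropped out when every array had to be well above background. The replicate numbers gave no sign of pairing: the deviations of same-numbered arrays correlated between -0.20 and 0.09 over 9 pairs. With 3 arrays a group, this cannot settle whether the arrays were paired by design. Each replicate number occurred in every group, so the differences with it as a block could not change. They were 5.05, -4.90 and 0.15 for Reg3g and 5.65, -6.05 and -0.40 for Reg3d. The counts of list genes with this block were 7, 6 and 3. Under 75th percentile scaling the median of all tested probes shifted by -0.11 in DSS against Control and by -0.10 in DSS+PAMK against Control. Reg3d is limited by signal: it was well above background on 5 of 9 arrays.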
